A study of Mus musculus with 4 samples.

Results

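The 10 genes described here are feedback inhibitors and transcriptional outputs of signalling from fibroblast growth factors (FGFs) through the kinase ERK. They are the Sprouty genes Spry1, Spry2 and Spry4, the Spred genes Spred1 and Spred2, the phosphatase gene Dusp6, the Pea3 family genes Etv1, Etv4 and Etv5, and Il17rd. They were chosen by gene symbol as known ERK-induced genes, with earlier results of these data known, and all 10 were found among the 52636 genes in the tables. RNA-seq was made from mouse cells that were sorted by fluorescence as otic ectoderm from otocysts, the closed vesicles from which the inner ear forms. There were 2 libraries of genotype Brg1cKO, a conditional knockout of the chromatin remodeler gene Brg1 (Smarca4), and 2 libraries of genotype Control, each from 3000 cells. The age of the embryos, the Cre driver, the strain and the deleted exons are not given in the labels, nor do these say whether replicates came from separate embryos, litters or sorts. All p-values below thus rest on replicate spread that may be technical alone.

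FGFs bind receptor tyrosine kinases and act through RAS and a chain of kinases on ERK, which enters the nucleus and switches on target genes through ETS factors. Many of these targets inhibit the pathway that induced them. Sprouty and Spred proteins hold back signalling at the level of RAS, Dusp6 removes the activating phosphates from ERK, and Il17rd (also called Sef) is a membrane protein that dampens the pathway, while Etv1, Etv4 and Etv5 are ETS activators that carry the signal to further genes. In the mouse, FGFs from the mesoderm and hindbrain induce the otic placode, and FGF signalling later acts in otic neurogenesis and in sensory patches, so these genes are widely used as readouts of the pathway in the ear.

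RefSeq promoter windows on GRCm38.p6, the same assembly as mm10, were at hand for 8 of the 10 genes, with 10 windows in all since Etv1 and Etv5 each have a pair of annotated starts. Etv4 and Spry4 were the others. The parts of 3 windows that lie outside annotated exons are printed because Etv1 was the member higher in the Brg1cKO libraries, Il17rd was among those lower, and Dusp6 had the highest level. Both annotated Etv1 starts lie inside the gene's annotated span, and the printed stretch lies before the one further upstream. Capitals mark GGAA, the core bound by ETS factors, on either strand.
Etv1 (chr12:38779832-38780081, plus strand, before the start that lies inside the gene's annotated span): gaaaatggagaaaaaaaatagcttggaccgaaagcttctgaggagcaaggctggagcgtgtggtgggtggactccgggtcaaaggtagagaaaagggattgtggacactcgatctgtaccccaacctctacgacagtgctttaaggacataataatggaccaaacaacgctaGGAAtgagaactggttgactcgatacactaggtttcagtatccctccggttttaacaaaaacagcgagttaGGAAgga
Il17rd (chr14:27038751-27038940, plus strand): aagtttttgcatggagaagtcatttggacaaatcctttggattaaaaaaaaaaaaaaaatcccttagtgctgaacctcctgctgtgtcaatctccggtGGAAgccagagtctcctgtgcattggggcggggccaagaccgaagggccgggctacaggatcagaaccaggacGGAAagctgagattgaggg
Dusp6 (chr10:99262981-99263230, plus strand): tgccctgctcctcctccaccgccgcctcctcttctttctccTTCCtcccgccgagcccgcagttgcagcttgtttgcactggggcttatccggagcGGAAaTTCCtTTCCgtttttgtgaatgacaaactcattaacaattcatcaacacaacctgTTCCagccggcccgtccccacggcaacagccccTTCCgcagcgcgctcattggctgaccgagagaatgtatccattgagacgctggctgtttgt
The printed Dusp6 stretch held 6 GGAA cores, against 2 each in the printed Etv1 and Il17rd stretches. These stretches are cut at annotated exons and have 250 bases for Dusp6 and Etv1 and 190 for Il17rd. The whole windows held 6 cores for Dusp6, 5 for this Etv1 start and 4 for Il17rd, and that of Spred2, not printed, held 7. Over the whole windows of 300 bases, GGAA stood in 9 of 10 windows of these genes and in 96.0% of all 32851 mouse promoter windows, so its presence does not set them apart. The longer ETS motif CCGGAA stood in 1 window, that of Spry2, and in 14.9% of all windows. The AP-1 motif TGANTCA and the motif TGAATGNA, which takes in sites of the ETS gene repressor Capicua, stood in 0 of 10 windows, and in 7.81% and 3.82% of all windows. Each motif was sought on both strands, every CCGGAA match holds a GGAA, and a match is a description of letters, not evidence of binding.

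Gene reads numbered 29361382 and 25875555 in the Brg1cKO libraries and 15357265 and 19132360 in the controls, 64.0% and 63.7% of all records in the Brg1cKO libraries and 48.2% and 49.3% in the controls. Genes with a read numbered 20859 and 20902 in the Brg1cKO libraries and 17266 and 17086 in the controls. Depth and detection thus differed along with genotype and cannot be told apart from it, a limit for every gene without control reads below. Values are given in CPM, a gene's share of the reads of its library after TMM scaling. Smarca4 stood at 891 and 848 CPM in the Brg1cKO libraries and 816 and 815 CPM in the controls (adjusted p = 0.817, edgeR). That count takes in exons outside any deletion, so it does not check the genotype, and the direction of each difference rests on the labels. Of 20 markers of otic epithelium, all were detected in both groups and all had negative fold changes, with a median log2 fold change of -1.99 and summed levels of 1338 and 1376 CPM in the Brg1cKO libraries against 4207 and 4334 CPM in the controls. Col2a1 alone gave 770 and 813 CPM of these sums in the Brg1cKO libraries and 1724 and 1711 CPM in the controls. Sox2, outside this list and named after its values were seen, had the opposite sign. It stood at 30.1 and 33.6 CPM in the Brg1cKO libraries and 12.1 and 16.7 CPM in the controls (adjusted p = 0.511, edgeR). Markers of macrophages summed to 1643 and 1566 CPM against 370 and 431 CPM, and markers of striated muscle to 911 and 926 CPM against 197 and 152 CPM. In sorted bulk RNA of this kind, fewer cells of a type and less RNA per cell cannot be told apart.

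Comparing the genotypes asks whether the ERK-induced genes differed where Brg1 was conditionally deleted. None of the 10 genes passed the test at an adjusted p under 0.05 (edgeR quasi-likelihood test, adjusted over 16557 genes), where 0.0302% of all genes passed, 5 in number, and their adjusted p-values ran from 0.368 to 0.939. At an unadjusted p under 0.05, 2 of the 10 were lower, Etv4 and Il17rd, and 0 were higher, against 4.80% of all genes lower, 7.66% higher and 12.5% in either direction. DESeq2 on the same genes called 3 of the 10, Etv4, Il17rd and Etv1, where it called 14.6% of all genes, and limma voom called 0. Log2 fold changes of Brg1cKO over control were negative for 9 genes and positive for Etv1, with a median of -0.30, beside a median of 0.03 and 48.5% negative over all genes tested. In 4 of the 10 genes both Brg1cKO libraries lay below both controls, and in 1 both lay above, where 17.8% of all genes lay below, 26.3% above and 44.1% in either direction. Thus 5 of the 10 did not overlap between the groups, a share near that of all genes.

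**Figure D1:**
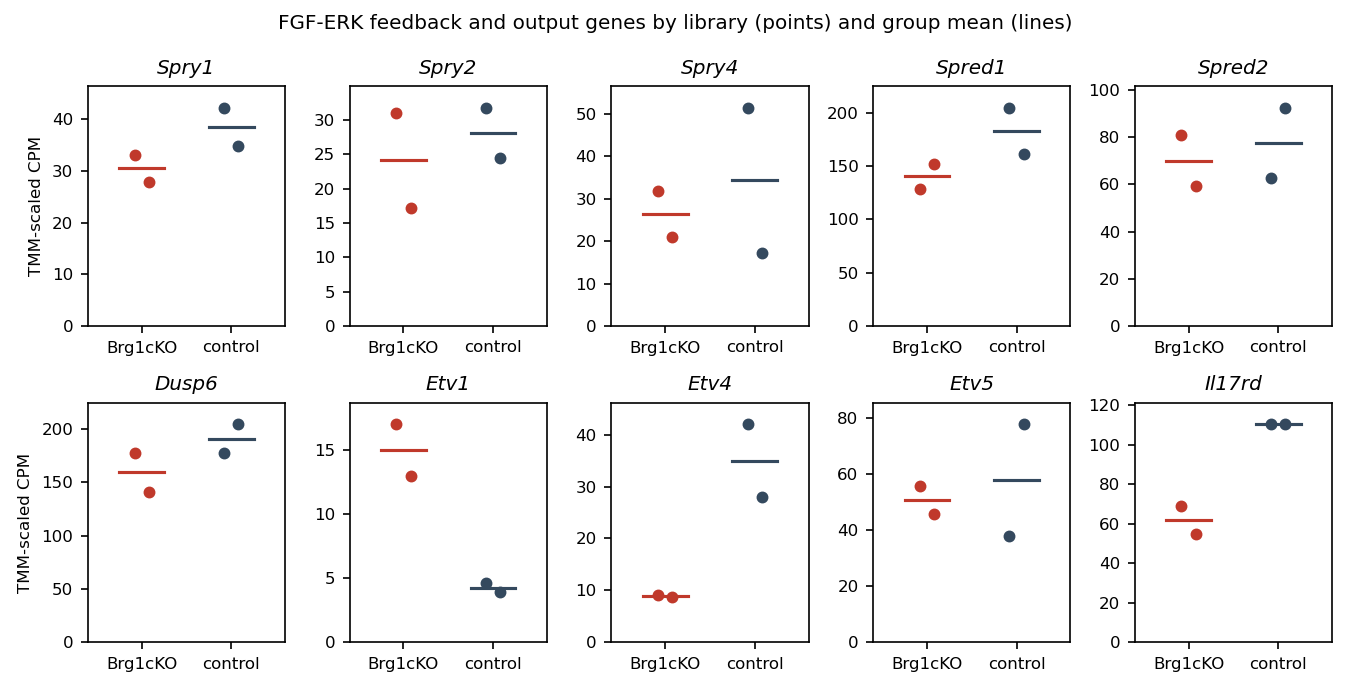
Level of each of the 10 genes in TMM-scaled CPM, with 1 point per library and a line at the group mean, Brg1cKO in red and control in dark blue. Etv4, Il17rd, Spred1 and Spry1 lay lower in both Brg1cKO libraries and Etv1 lay higher, while the other 5 genes overlapped.

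Among the outputs, Etv4 had the lowest fold change of the 10 genes. This ETS activator (ENSMUSG00000017724, chromosome 11, 101769742 to 101785371, minus strand, mm10) stood at 9.19 and 8.79 CPM in the Brg1cKO libraries and 42.0 and 28.0 CPM in the controls, from 269 and 228 reads against 646 and 528. Both Brg1cKO libraries lay close together and well below the lower control. The log2 fold change was -1.96 ± 0.615 (SE; 95% interval -3.40 to -0.52), a level 3.89-fold lower. It did not pass over all genes (unadjusted p = 0.0146, adjusted p = 0.368, edgeR), and 5.98% of tested genes had a fold change as low or lower. Its adjusted p was 0.00026 with DESeq2 and 0.000821 without control replicate 2, and it ran from 0.00026 to 1 over the alternatives.

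Etv1 had the opposite sign. This ETS activator, which also specifies neuron types in the mouse (ENSMUSG00000004151, chromosome 12, 38779380 to 38870484, plus strand), stood at 17.0 and 13.0 CPM in the Brg1cKO libraries and 4.61 and 3.93 CPM in the controls. The 2 controls rested on only 71 and 74 reads, against 498 and 336 in the Brg1cKO libraries, and the groups did not overlap. The log2 fold change was 1.81 ± 1.02 (SE; 95% interval -0.59 to 4.21), a level 3.51-fold higher with an interval that takes in 0 (adjusted p = 0.577, edgeR). With DESeq2 the adjusted p was 0.0394, and over the alternatives it ran from there to 1.

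Etv5, the third member of the family and a factor of epithelial FGF responses (ENSMUSG00000013089, chromosome 16, 22381309 to 22439719, minus strand), stood at 55.5 and 45.9 CPM in the Brg1cKO libraries and 37.9 and 77.6 CPM in the controls. The Brg1cKO values lay between the controls, which differed 2.05-fold from each other. Its log2 fold change was -0.19, with a 95% interval from -1.24 to 0.86, and it became 0.40 without control replicate 2.

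These values gave the Pea3 family another makeup in the Brg1cKO libraries, described here after the values were seen and so without a test. Per kilobase of annotated exon, Etv4 made up 16.7% and 18.9% of the family's summed level in the Brg1cKO libraries, against 58.5% and 32.0% in the controls. Etv5 made up 76.2% and 74.6% against 40.0% and 67.0%, and Etv1 7.20% and 6.50% against 1.5% and 1.05%. Within each library, where the scaling cancels, Etv1 had 1.85 and 1.47 reads for each Etv4 read in the Brg1cKO libraries and 0.110 and 0.140 in the controls, so the order of this pair turned round between the groups. That order is of reads, not of levels per length. Etv1 has 13.3 kb of annotated exon against 3.10 kb for Etv4, and per kilobase Etv4 stayed above Etv1 in all 4 libraries. The family's summed level per kilobase was 17.8 and 15.0 CPM in the Brg1cKO libraries and 23.1 and 28.2 CPM in the controls.

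**Figure D2:**
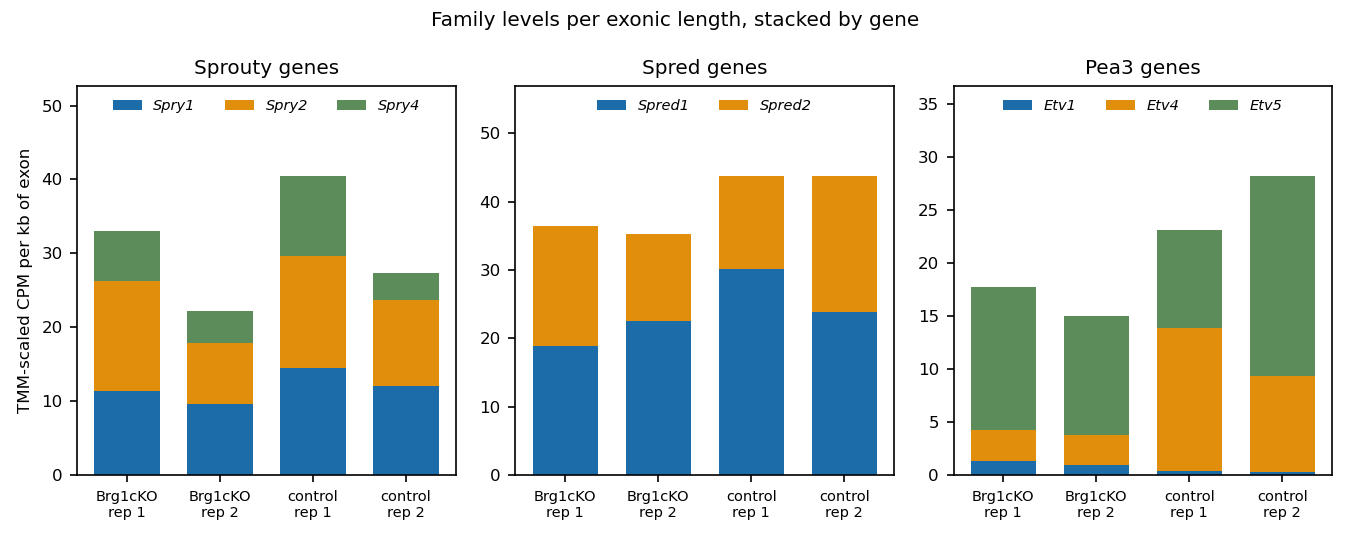
Summed level of the Sprouty, Spred and Pea3 genes in each library, in TMM-scaled CPM per kilobase of exon, stacked by gene, with the Brg1cKO libraries left of the controls. Etv4 made up at most 18.9% of the Pea3 bar in Brg1cKO libraries and at least 32.0% in controls, while the shares of each Sprouty and Spred gene overlapped between the groups.

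Among the inhibitors, Il17rd had the lowest fold change. The gene for this membrane inhibitor of FGF signalling (ENSMUSG00000040717, chromosome 14, 27038941 to 27107286, plus strand) stood at 69.0 and 55.0 CPM in the Brg1cKO libraries and 110 CPM in each control. The controls were almost equal and both Brg1cKO libraries lay well below them. Its log2 fold change was -0.83 ± 0.286 (SE; 95% interval -1.5 to -0.16), 1.78-fold lower (unadjusted p = 0.0216, adjusted p = 0.368, edgeR). It was called with DESeq2 (adjusted p = 0.00223) and without control replicate 1 (0.0149) or 2 (0.0137), but its adjusted p was 1 without Brg1cKO replicate 1 or 2, the top of its range.

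The Spred genes, whose proteins bring neurofibromin to the membrane to switch RAS off, had the highest mean levels per exonic length among the inhibitors after Dusp6. Spred1 (ENSMUSG00000027351, chromosome 2, 117121374 to 117182279) stood at 128 and 152 CPM in the Brg1cKO libraries and 205 and 161 CPM in the controls. The groups did not overlap, yet the higher Brg1cKO library lay close to the lower control. Its log2 fold change was -0.38 ± 0.222 (SE; 95% interval -0.91 to 0.14; adjusted p = 0.595, edgeR), and the adjusted p was 0.0182 without control replicate 2, within a range of 0.0182 to 1. Spred2 (ENSMUSG00000045671, chromosome 11, 19924375 to 20024026) stood at 81.0 and 59.2 CPM in the Brg1cKO libraries and 62.9 and 92.5 CPM in the controls. The groups overlapped, with the lowest value in a Brg1cKO library and the highest in a control. Its log2 fold change was -0.15, with a 95% interval from -0.97 to 0.68 (adjusted p = 0.935, edgeR). Summed over both Spred genes, the level per kilobase was 36.5 and 35.3 CPM in the Brg1cKO libraries and 43.8 CPM in each control. The groups did not overlap in this sum, which was not tested.

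Dusp6, the ERK phosphatase most used as a sign of ERK activity (ENSMUSG00000019960, chromosome 10, 99263231 to 99267489), stood at 178 and 141 CPM in the Brg1cKO libraries and 177 and 204 CPM in the controls. The higher Brg1cKO library lay at the level of the lower control and the other lay below it. The log2 fold change was -0.26 ± 0.213 (SE; 95% interval -0.76 to 0.24; adjusted p = 0.748, edgeR). Dusp6, Spred1 and Spred2 were the 3 genes whose whole interval lay between -1 and 1 on the log2 scale. A change of 2-fold or more thus lay outside each of these intervals in either direction, while some smaller changes lay within them. In the other 7 the interval reached past 2-fold.

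The Sprouty genes encode inhibitors that act on receptor signalling upstream of ERK. Spry1 (ENSMUSG00000037211, chromosome 3, 37639947 to 37644598) stood at 33.2 and 27.8 CPM in the Brg1cKO libraries and 42.2 and 34.8 CPM in the controls, with the higher Brg1cKO library close to the lower control. Its log2 fold change was -0.34 ± 0.444 (SE; 95% interval -1.38 to 0.70; adjusted p = 0.862, edgeR). Its exons share 710 bases with Gm42922 on the opposite strand, a transcript with 0 and 4 reads in the Brg1cKO libraries and 0 in each control.

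Spry2 (ENSMUSG00000022114, chromosome 14, 105891947 to 105896819) stood at 31.1 and 17.2 CPM in the Brg1cKO libraries and 31.8 and 24.4 CPM in the controls. Spry4 (ENSMUSG00000024427, chromosome 18, 38586247 to 38601415) stood at 31.9 and 21 CPM in the Brg1cKO libraries and 51.5 and 17.2 CPM in the controls. Both overlapped between the groups, and the Spry4 controls differed 2.99-fold, the widest gap between replicates among the 10 genes. The log2 fold changes were -0.22 for Spry2 (95% interval from -1.55 to 1.12) and -0.37 for Spry4 (from -1.89 to 1.14), and that of Spry4 became 0.63 without control replicate 1. Summed over the 3 Sprouty genes, the level per kilobase was 33.0 and 22.3 CPM in the Brg1cKO libraries and 40.6 and 27.3 CPM in the controls, so that the groups overlapped here as well.

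**Figure D3:**
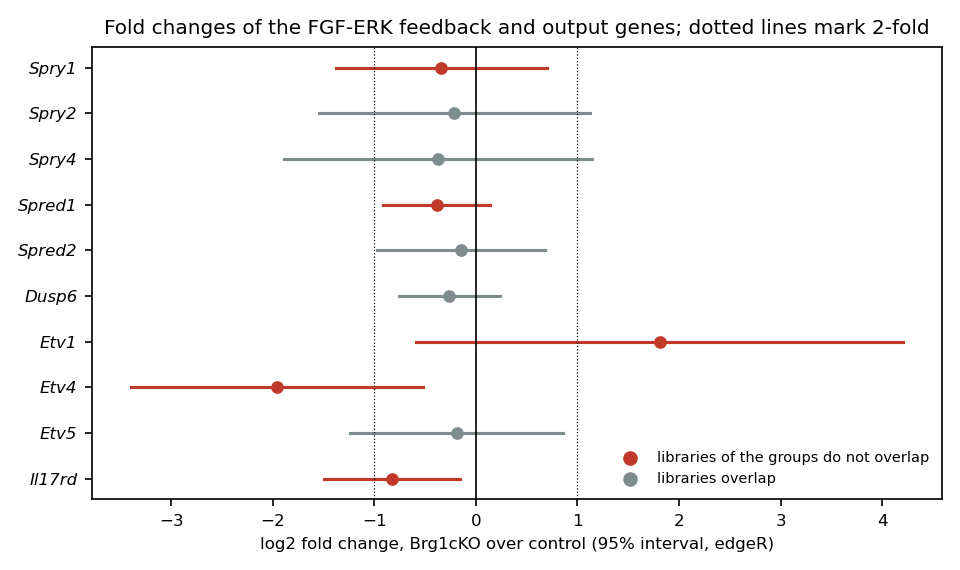
Log2 fold change of Brg1cKO over control for each gene, with its 95% interval derived from the edgeR F-test, where red marks genes whose libraries did not overlap between the groups and dotted lines mark 2-fold. The intervals of Etv4 and Il17rd lay below 0, before adjustment for the number of genes, and those of Dusp6, Spred1 and Spred2 lay within the dotted lines.

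Levels of different genes were compared per kilobase of annotated exon. In the Brg1cKO libraries Dusp6 was highest at 50.8 ± 8.35 CPM per kilobase, then Spred1 at 20.7 ± 2.48 and Spred2 at 15.2 ± 3.34 (SD, n = 2). Next came Etv5 at 12.4 ± 1.67, Spry2 at 11.6 ± 4.69 and Spry1 at 10.5 ± 1.29 CPM per kilobase, which with Spred2 form a stretch in which each gene overlapped its neighbour. Il17rd at 5.64 ± 0.903 and Spry4 at 5.56 ± 1.62 overlapped each other, and Etv4 at 2.90 ± 0.0897 and Etv1 at 1.13 ± 0.215 stood apart at the low end. By group mean, the controls had the same 3 genes at the top. These were Dusp6 at 60.8 ± 6.13, Spred1 at 27.0 ± 4.54 and Spred2 at 16.8 ± 4.53 CPM per kilobase, and Etv1 was lowest at 0.321 ± 0.0365. In between, Etv5, Spry2, Spry1, Etv4, Il17rd and Spry4 lay from 14.1 to 7.22 CPM per kilobase, and each overlapped its neighbour. Spred2, at 13.6 and 20 CPM per kilobase in control replicates 1 and 2, overlapped this stretch too. In control replicate 1 it lay below Spry2 at 15.2 and Spry1 at 14.5. Etv4 was at place 7 of 10 in the controls, at 11.3 ± 3.18, and at place 9 in the Brg1cKO libraries. By the longest transcript in place of all exons, it was at place 4 in the controls, at 14.6 ± 4.12 CPM per kilobase, and again at place 9 in the Brg1cKO libraries, so its place in the controls depends on the length used.

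Further parts of the pathway were read from lists of FGF ligands, receptors, the RAS-ERK cascade, other ERK-induced genes and other ETS factors, in which 0 genes passed over all genes tested with edgeR or limma voom. DESeq2, which called 14.6% of all genes, called 1 of 14 ligands, 0 of 6 receptors, 2 of 25 cascade genes, 5 of 20 further ERK-induced genes and 4 of 17 ETS factors. Their counts at an unadjusted p under 0.05 in edgeR follow. Over all genes tested, 4.80% were lower and 7.66% higher at that threshold, 12.5% in either direction. The 25 cascade genes, all tested, had a median log2 fold change of -0.09, with 2 higher and 0 lower at an unadjusted p under 0.05. Among these was Ptpn11, a phosphatase that relays receptor signals to RAS, at 246 and 225 CPM in the Brg1cKO libraries and 152 and 167 CPM in the controls (adjusted p = 0.368, edgeR). By contrast the abundant cascade genes Map2k2, which encodes a MEK, and Cbl, a ubiquitin ligase that takes receptors out of use, had log2 fold changes of -0.09 (95% interval from -0.53 to 0.35) and -0.03 (from -0.46 to 0.40).

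FGF receptors had 6 of 7 genes tested and a median of -0.06, with 0 at an unadjusted p under 0.05. Fgfr1 stood at 204 and 220 CPM in the Brg1cKO libraries and 163 and 243 CPM in the controls, and Fgfr2, the main receptor of otic epithelium, at 146 and 129 CPM against 130 and 139 CPM. Fgfrl1, a receptor without a kinase, and Kl, a cofactor for circulating FGFs, had the smallest p in this list, with log2 fold changes of 0.35 and -1.19 (adjusted p = 0.828 and 0.837, edgeR). The 7 genes of the receptor list summed to 482 and 439 CPM in the Brg1cKO libraries and 386 and 510 CPM in the controls. Ligand genes gave far fewer reads, a comparison of reads and not of levels per length. The 22 genes of the ligand list summed to 39.4 and 55.7 CPM in the Brg1cKO libraries and 72.8 and 85.3 CPM in the controls. Of these, 14 were tested, and the median log2 fold change was -0.57. The list takes in Fgf11, Fgf12, Fgf13 and Fgf14, intracellular relatives that are not secreted, so these values are not of secreted ligands alone. Fgf13 stood at 8.50 and 22.5 CPM in the Brg1cKO libraries and 6.76 and 26.4 CPM in the controls, and Fgf9 at 5.36 and 11.7 CPM against 6.04 and 30.0 CPM. Fgf2 stood at 0.888 and 5.09 CPM in the Brg1cKO libraries, from 26 and 132 reads, and had 0 reads in each control (adjusted p = 0.368, edgeR), and it was the 1 ligand at an unadjusted p under 0.05. Fgf5 stood at 0.615 and 1.66 CPM in the Brg1cKO libraries and 0.130 and 0.0531 CPM in the controls.

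Of 20 tested genes among 21 further ERK-induced genes, 3 were lower and 2 higher at an unadjusted p under 0.05, and the median log2 fold change was -0.15. Egr1, an immediate early transcription factor, stood at 291 and 300 CPM in the Brg1cKO libraries and 466 and 370 CPM in the controls. Fos, another immediate early gene, stood at 448 and 378 CPM in the Brg1cKO libraries and 343 and 306 CPM in the controls, so that the most abundant pair of this list lay on opposite sides. Dusp7, a cytoplasmic ERK phosphatase closely related to Dusp6, stood at 74.9 and 87.6 CPM in the Brg1cKO libraries and 41.5 and 33.1 CPM in the controls. Its log2 fold change was 1.12 ± 0.351 (SE), against -0.26 for Dusp6, and neither passed (adjusted p = 0.368 and 0.748, edgeR). Dusp5, a nuclear ERK phosphatase, and Phlda1, both named after their values were seen, stood at 16.0 and 24.3 CPM and at 18.5 and 24.3 CPM in the Brg1cKO libraries, against 46.8 and 51.5 CPM and 48.5 and 58.8 CPM in the controls. These and Egr1 were the 3 lower genes, and Dusp7 and Fosl1, which had 151 and 20 reads in the Brg1cKO libraries and 0 in each control, were the higher ones. Fosl1 too was named after its values were seen.

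ETS factors outside the Pea3 family had 17 of 20 genes tested and a median of 0.21, with 3 higher and 0 lower at an unadjusted p under 0.05. Spi1, the ETS factor that specifies macrophages, stood at 93.4 and 75.4 CPM in the Brg1cKO libraries and 6.76 and 24.9 CPM in the controls, and Elf4, active in blood cells, at 115 and 102 CPM against 49.0 and 30.8 CPM (adjusted p = 0.310 and 0.285, edgeR). The third, Etv2, likewise named after its values were seen, had 27 and 16 reads in the Brg1cKO libraries and 0 in each control. Beside them, the 12 macrophage markers were all positive (median 2.17 on the log2 scale). The abundant factors Ets1 and Elk3 had log2 fold changes of 0.21 (95% interval from -0.18 to 0.61) and -0.05 (from -0.57 to 0.47).

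**Figure D4:**
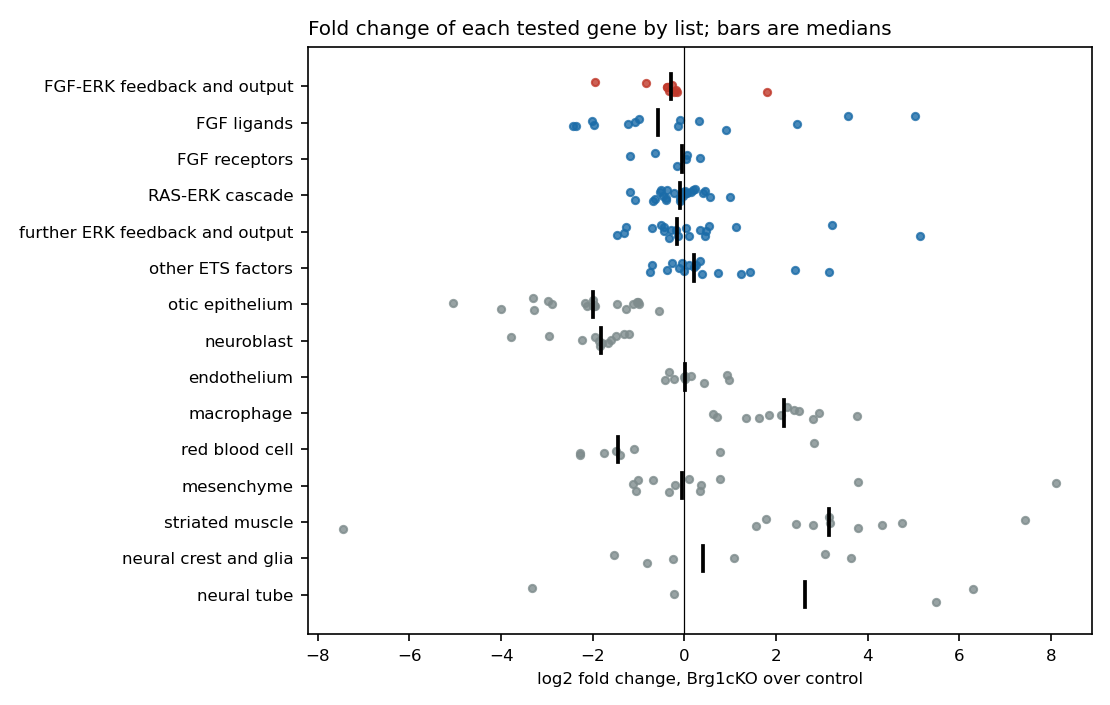
Log2 fold change of Brg1cKO over control for each tested gene, by list, with the 10 genes in red, other pathway lists in blue, cell type markers in grey and black bars at the medians; genes without reads in a group are drawn at a bound set by 3 reads. The 10 genes had a median of -0.30, between -1.99 for otic epithelium markers and 2.17 for macrophage markers.

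Markers of cell types moved by different amounts beside the ERK-induced genes, and the lists were not tested against each other. All 12 neuroblast markers were negative, with a median log2 fold change of -1.81, and summed to 497 and 444 CPM in the Brg1cKO libraries and 1513 and 1513 CPM in the controls. The 10 FGF-ERK genes together summed to 634 and 541 CPM against 765 and 754 CPM. Endothelial markers summed to 3271 and 3233 CPM against 2990 and 2913 CPM, with a median of 0.01. They were 6 positive and 4 negative, from -0.43 to 0.97 on the log2 scale. Mesenchyme markers summed to 3078 and 3143 CPM against 3897 and 4212 CPM, with a median of -0.05. They were 6 positive and 6 negative, from -1.11 to 8.12. Both medians near 0 thus take in changes in each direction. Endothelium and mesenchyme also express Sprouty, Spred and Dusp6 genes in the mouse embryo. Of the markers, Oc90, the otoconial matrix gene, fell to 44.6 and 49.1 CPM in the Brg1cKO libraries, against 782 and 732 CPM in the controls (adjusted p = 0.000326, edgeR). Red blood cell markers, 8 of 9 of them tested, were 2 positive and 6 negative with a median of -1.45. The positive ones were Gata1 and Klf1, named after their values were seen (log2 fold changes 0.77 and 2.82). Striated muscle markers, 11 of 12 tested, had a median of 3.15. Of the muscle markers 10 were positive and 1 was negative, Myod1, named after its values were seen (log2 fold change -7.44). Neural crest and glia markers, 6 of 7 tested, were 3 positive and 3 negative with a median of 0.41, and summed to 137 and 138 CPM in the Brg1cKO libraries and 184 and 248 CPM in the controls. Neural tube markers, 4 of 7 tested, were 2 positive, both without a control read, and 2 negative, and summed to 14.1 and 17.4 CPM in the Brg1cKO libraries and 5.78 and 47.8 CPM in the controls. No listed marker of otic epithelium, neuroblasts, endothelium or macrophages was at 0 in both libraries of a group, while Pax3, Sox1, Dbx1 and Hes5 of the neural tube and Myf5 of muscle were at 0 in both controls, and Olig2 and Hes5 in both Brg1cKO libraries. The part of these markers' cells in the values of the 10 genes was not tested.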

How the data were processed

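RNA-seq libraries were made from 3000 sorted cells each with a random-primed, stranded kit, per the labels' protocols, and single reads of 75 bp were taken. The authors deposited raw read counts per Ensembl gene. HISAT2, HTSeq, DESeq2 and mm10 are named in the submitters' processing notes, while the strand setting of the counting and the gene annotation are not named there. Lines that name no gene (36.0%, 36.3%, 51.8% and 50.7% of records in Brg1cKO replicates 1 and 2 and control replicates 1 and 2) were left out. Symbols, positions and exon lengths came from GENCODE M21 of mm10, which matched 52489 of 52636 identifiers. Counts were filtered with filterByExpr (minimum count 10), which kept 16557 genes and all 10 members, scaled by TMM and tested with edgeR 4.0.16 in R 4.3.3 (quasi-likelihood F-test, robust moderation in its installed default form, Benjamini-Hochberg adjustment over all genes). Standard errors were derived as the size of the log2 fold change over the square root of its F statistic, and 95% intervals from these and the t distribution on the moderated degrees of freedom; neither is an output of edgeR. The 14 gene lists come from textbook knowledge; they and the members were chosen with earlier results of these data known. Beside the 10 members, the text names, from each pathway list, called genes, the 2 with the smallest p and the 2 with the highest average level, and marker genes among the highest, with exceptions said; 1 gene that the rule names is not reported here. Alternatives used other scalings, filters, DESeq2 1.42.0, limma 3.58.1, other moderation, a replicate block and each library left out. Intervals and floors cover the spread or counting error only, since reads carried no molecular identifiers.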

Additional observations from a re-analysis of the deposited data

How the results depend on the processing

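Over 15 alternatives the fold changes of Etv4, Il17rd, Etv1, Spred1, Dusp6 and Spry1 kept their sign, from -2.24 to -1.63 on the log2 scale for Etv4, -1 to -0.67 for Il17rd and 1.61 to 2 for Etv1. With a library left out, the others ran from -0.69 to 0.15 for Spry2 (positive without Brg1cKO replicate 2), -0.98 to 0.63 for Spry4 (positive without control replicate 1), -0.40 to 0.14 for Spred2 (positive without control replicate 2 and, at 0.07, without Brg1cKO replicate 2) and -0.61 to 0.40 for Etv5 (positive without control replicate 2). The count of the 10 genes called was 0 in edgeR and became 3 with DESeq2; with a library left out it ran from 0 to 3, with Il17rd called without control replicate 1 and Spred1, Etv4 and Il17rd without control replicate 2, where the lone control is assumed to vary like the other group. In those fits 17.6% and 16.9% of all genes were called. The count over all genes, 5, became 417 with every gene of at least 1 count, 10 with a minimum count of 50, 2422 with DESeq2, 54 with limma voom, 70 with the newer edgeR moderation and 38 at an adjusted p under 0.10, and ran from 33 to 3519 with a library left out. With the replicate number as a block it was 140, and 0 of the 10 genes were called. Deviations of same-numbered libraries had a correlation of -0.00528 across genes. With 2 libraries a group, this cannot show whether same-numbered libraries shared a litter, sort or batch. The longest transcript in place of all exons put the level of Etv1 at 2.28 instead of 1.13 CPM per kilobase in the Brg1cKO libraries and 0.649 instead of 0.321 in the controls. With 2 libraries a group, changes of 2-fold lay within the 95% intervals of 7 of the 10 genes, and the fold of Etv1 rests on 71 and 74 reads in the controls.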
